A study of Equus caballus with 9 samples.

Results

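A group of 67 genes was described that were high in 3 libraries of this horse stromal cell study (MSC1, MSC2 and CDM3) and low in 2 others (MSC3 and CDM1). Both sides of that split hold undifferentiated cells and cells taken towards cartilage, so the split runs across the study's labels. The libraries were made from bone marrow-derived mesenchymal stromal cells (MSC), kept undifferentiated or differentiated towards adipocytes (ADM) or chondrocytes (CDM), with 3 libraries in each group. The name of a library gives its group and its replicate number. The sources used here give no donor animal, age, passage, medium or time of differentiation. Whether replicates are separate animals or cultures is not stated either, so a p-value here reflects library-to-library spread, part or all of which may be technical.

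The 67 genes are 0.494% of the 13571 genes that passed a filter on low counts, out of 30371 gene IDs in the files. They were chosen by level. The unit is CPM, the usual unit of a gene's counts relative to its library total, after TMM scaling for library composition. A gene was a member if its lowest CPM in MSC1, MSC2 and CDM3, called the high libraries here, was at least 5 and at least 3 times the higher CPM of MSC3 and CDM1, the low libraries. These 5 libraries chose the members, so their levels are given as a description only. The 3 ADM libraries and CDM2 were not used to choose. The opposite pattern, high in MSC3 and CDM1 by the same thresholds, was found in 85 genes.

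Mesenchymal stromal cells are grown from bone marrow by their adherence to plastic, and a culture is a mixture of cells that differ in growth and in how readily they form fat, cartilage or bone. Adipogenic differentiation is known for genes of lipid storage, and chondrogenic differentiation for genes of cartilage matrix. In bulk RNA, fewer cells of one kind and less RNA per cell cannot be told apart. The files give Ensembl IDs, and 0 of them matched the RefSeq table used here, so no member has a symbol, a position or a sequence in the text. The 30 lists of pathway genes and cell type markers could not be matched either. The labelled cell types, and the presence of other cells in any library, were therefore not tested.

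The high and low libraries differed in several whole-library values. Gene counts were 26581345, 26769259 and 28064326 in MSC1, MSC2 and CDM3, and 37609071 and 31936658 in MSC3 and CDM1, so the libraries in which the members were low were the more deeply sequenced. Reads in no annotated gene made up 21.7% to 23.3% of counted reads in the high libraries and 16.9% and 17.7% in the low ones, with 17.7% to 19.0% in ADM and 24.4% in CDM2. TMM factors were 1.13 to 1.41 in the high libraries and 0.904 and 0.922 in the low ones. The part of these differences in the members' levels was not tested. CDM2 stood apart by its factor of 0.525 and its 17260899 gene counts, the fewest of the 9 libraries.

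**Figure D1:**
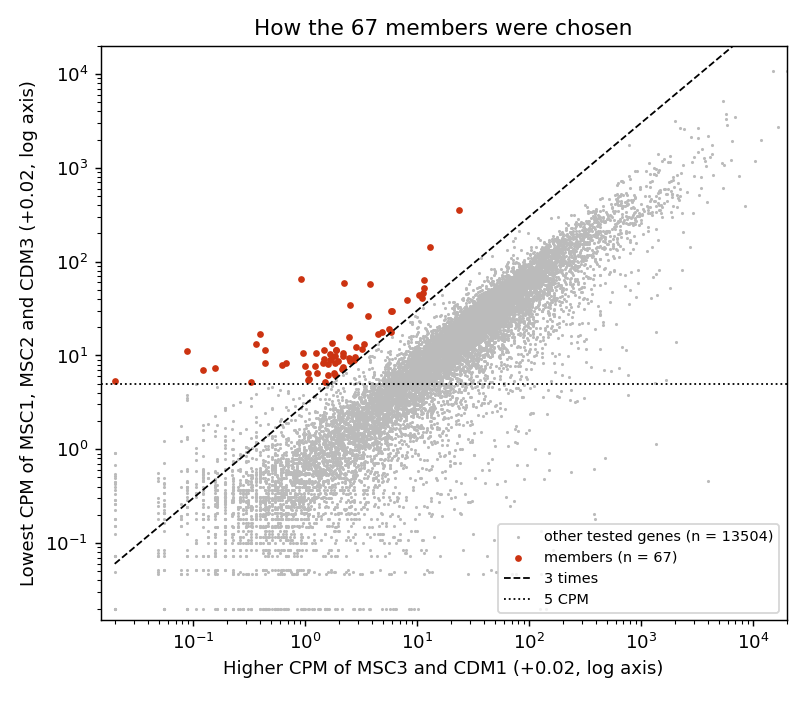
Each point is 1 of the 13571 tested genes, by its higher CPM in MSC3 and CDM1 and its lowest CPM in MSC1, MSC2 and CDM3, both on log axes after adding 0.02. The 67 members lie on or above the lines at 3 times and 5 CPM, which chose them.

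The members took up a far larger share of the reads in the high libraries, as the rule required. Together they held 0.517%, 0.301% and 0.347% of gene counts in MSC1, MSC2 and CDM3, against 0.0148% in MSC3 and 0.0159% in CDM1 (Wilson 95% intervals 0.0144% to 0.0152% and 0.0154% to 0.0163%, counting error only). The libraries not used to choose lay between these, at 0.191%, 0.138% and 0.111% in ADM1, ADM2 and ADM3 and 0.109% in CDM2. Without the 5 most abundant members the shares were 0.204% to 0.301% in the high libraries, 0.0119% and 0.0138% in the low ones, and 0.0636% to 0.0859% in the other 4. The order of the 3 sets of libraries was the same without those 5 genes. The median member was at 16.1 to 25.6 CPM in the high libraries and at 1.47 and 1.49 CPM in MSC3 and CDM1, while the median of all tested genes was 13.3 to 15.1 CPM in all 9 libraries.

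Most members were of moderate level. Their mean over the high libraries ran from 6.80 to 464 CPM with a median of 19.1, and 8 members exceeded 100 CPM. The fold between the lowest high library and the higher low library had a median of 5.35 over the 66 members with reads in a low library, and 18 members reached 10 or more. Just inside the fold threshold were ENSECAG00000012742 at 3.04 and ENSECAG00000005302 at 3.29, and just outside it were ENSECAG00000016957 at 2.96 and ENSECAG00000031575 at 2.95. The folds ran on across the threshold without a gap.

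The most abundant member was ENSECAG00000035279. It was at 359, 447 and 587 CPM in MSC1, MSC2 and CDM3, at 23.7 and 6.997 CPM in MSC3 and CDM1, at 487, 184 and 305 CPM in ADM1 to ADM3 and at 452 CPM in CDM2. All 4 libraries outside the rule were well above the low libraries for this gene, so MSC3 and CDM1 were the exceptions among 9. ENSECAG00000018670, the next in level, was at 633, 142 and 252 CPM in MSC1, MSC2 and CDM3 and at 5.28 and 13.1 CPM in MSC3 and CDM1. Its ADM libraries, at 91.6, 103 and 24.95 CPM, and CDM2, at 23.0 CPM, lay between the high and the low libraries.

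ENSECAG00000017114 had 0 counts in MSC3, in CDM1 and in each ADM library. It had 183, 447 and 1031 counts in MSC1, MSC2 and CDM3, or 5.29, 11.9 and 32.6 CPM, and 53 counts (5.85 CPM) in CDM2. Against the 3 counts that a library with 0 reads allows, its lowest high library was at least 50.9-fold higher than the low ones. CDM2 was thus the only library outside the high 3 with reads of this gene. ENSECAG00000020937 had 2 counts in each low library and 425 to 934 counts in the high ones. The ratio of its lowest high library to its higher low library was 163 (exact 95% interval 44.8 to 1350, counting error only). Its ADM libraries, at 2.47, 3.34 and 3.29 CPM, and CDM2, at 2.43 CPM, were close to each other and lay between both sides.

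Within the high libraries the members were not at 1 common level. The fold between the highest and lowest of the 3 had a median of 2.39 and reached 38.5 for ENSECAG00000018104, chosen after its values were seen, at 36.0, 8.22 and 317 CPM in MSC1, MSC2 and CDM3. MSC1 was the highest of the 3 for 32 members, CDM3 for 21 and MSC2 for 14. At the other end, ENSECAG00000004151, also chosen after its values were seen, was at 9.68, 9.65 and 9.66 CPM in these libraries. Of the low libraries, MSC3 was below CDM1 for 38 members and above it for 28, and both had 0 counts for ENSECAG00000017114.

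**Figure D2:**
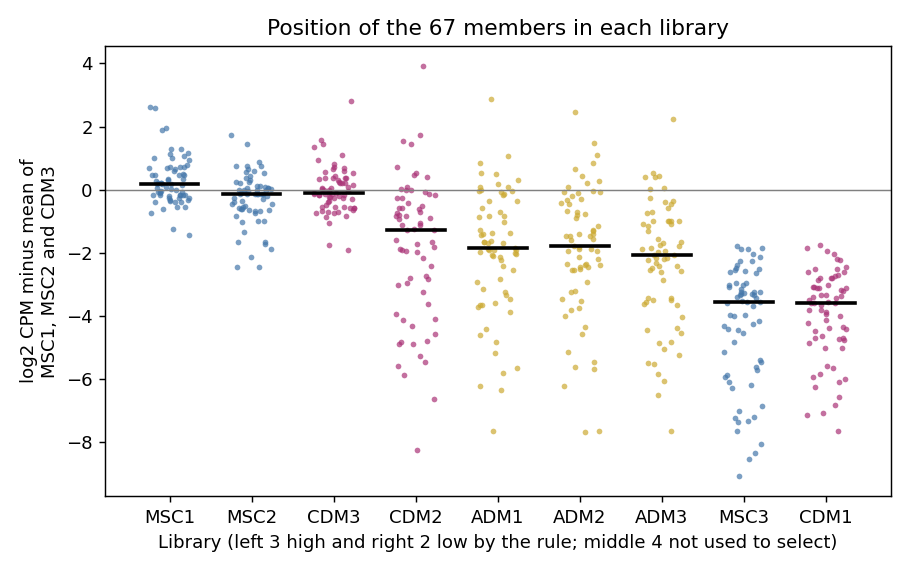
Each point is a member, placed by its log2 CPM in a library minus its mean over MSC1, MSC2 and CDM3, and black bars are medians over the 67 members. The bars of CDM2 and the 3 ADM libraries lie between those of the high libraries on the left and the low libraries on the right, which the rule set apart.

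In the libraries outside the rule the median member lay between the high and low libraries, with a wide spread among members. The median member was 1.84, 1.78 and 2.09 below its mean over the high libraries, on the log2 CPM scale, in ADM1, ADM2 and ADM3, and 1.27 below it in CDM2; it was 3.56 and 3.59 below in MSC3 and CDM1. Relative to the mean of the low libraries, the median member was 1.81, 1.95 and 1.60 higher in ADM1 to ADM3 and 2.43 higher in CDM2. Since members were picked for high values on one side and low values on the other, a place between the sides follows in part from the choice. Among the 8542 tested genes with at least 5 CPM in every high library, the median difference from the high libraries was between -0.023 and 0.007 in the ADM libraries and -0.22 in CDM2.

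To count these places, a library was put on the high side of a gene when it reached the lowest high library, and on the low side when it was no higher than the higher low library. ADM1 was on the high side for 20 members, between for 34 and on the low side for 13. The same counts were 19, 39 and 9 in ADM2, 12, 41 and 14 in ADM3, and 21, 30 and 16 in CDM2. Every ADM library was on the low side for 6 members and on the high side for 5, or 8.96% and 7.46%. Among the 1777 tested genes whose high libraries all exceeded the low ones, by any amount, these shares were 26.7% and 22.1%. For CDM2 they were 31.1% low and 57.7% high in the 1777 genes, against 23.9% and 31.3% of members. The gap of at least 3 times leaves more room between the sides, so the smaller shares of members are partly set by the rule.

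**Figure D3:**
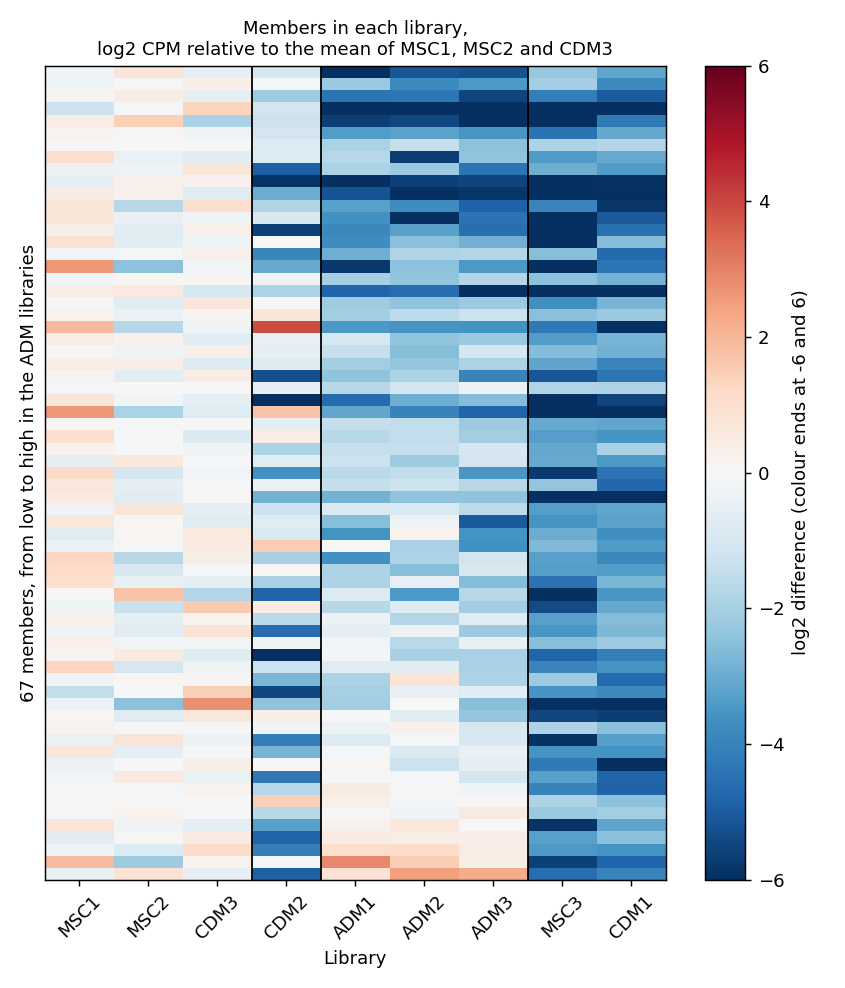
Rows are the 67 members and columns the 9 libraries, coloured by log2 CPM minus the mean of MSC1, MSC2 and CDM3. Rows are sorted first by the sides of the ADM libraries, from all low through the between and mixed classes to all high. Within each class they are sorted by the mean place of the ADM libraries. The 6 members at the top were low in every ADM library and the 5 at the bottom high in every one. CDM2 did not follow this order: it was on the low side for 0 of those 6 and for 4 of those 5.

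The 6 members on the low side in every ADM library came first. ENSECAG00000017114, described above, had no reads in ADM. ENSECAG00000041010 was at 0.353, 0.410 and 0.165 CPM in ADM1 to ADM3, against 28.3, 56.7 and 5.48 CPM in the high libraries, 0 and 1.04 CPM in MSC3 and CDM1, and 8.50 CPM in CDM2. Its ADM mean of 0.309 ± 0.128 CPM (SD, n = 3) was 97.5-fold below its mean over the high libraries. The other 4, named because they are so few, were ENSECAG00000003921, ENSECAG00000005302, ENSECAG00000016768 and ENSECAG00000023764. CDM2 was on the low side for none of the 6, being between the sides for 3 and on the high side for 3.

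The 5 members that were high in every ADM library were ENSECAG00000009663, ENSECAG00000012011, ENSECAG00000014992, ENSECAG00000015972 and ENSECAG00000017015. ENSECAG00000012011 was at 20.8, 63.96 and 54.8 CPM in ADM1 to ADM3, against 8.81, 21.1 and 8.33 CPM in the high libraries and 0.433 and 0.658 CPM in MSC3 and CDM1. CDM2, with 3 counts (0.331 CPM), was below all of these. ENSECAG00000017015 was at 499, 189 and 90.9 CPM in ADM, 256, 15.6 and 79.6 CPM in the high libraries, 1.33 and 2.46 CPM in the low ones and 64.4 CPM in CDM2. Its ADM mean of 260 ± 213 CPM (SD, n = 3) has a wide spread, and its MSC1 value lay within the ADM range. ENSECAG00000009663 was the steadiest in ADM, at 89.2, 84.8 and 82.8 CPM, with 2.21 CPM in CDM2. CDM2 was on the low side for 4 of the 5 and on the high side for ENSECAG00000017015.

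CDM2, the chondrogenic library outside the rule, sided with neither CDM1 nor CDM3 as a whole. It was at or above the lowest high library for 21 members and no higher than the higher of MSC3 and CDM1 for 16. ENSECAG00000023844 had its highest level of all 9 libraries there, 457 CPM, against 118, 9.12 and 26.03 CPM in MSC1, MSC2 and CDM3, 1.47 and 0.381 CPM in MSC3 and CDM1, and 2.699, 2.57 and 2.44 CPM in ADM. ENSECAG00000034339 was also highest in CDM2, at 149 CPM, against 39.2, 46.9 and 73.3 CPM in the high libraries and 8.20 and 4.85 CPM in the low ones. Its ADM libraries, at 49.99, 13.3 and 4.05 CPM, spanned both sides.

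Other members were nearly absent from CDM2. ENSECAG00000016228 had 0 counts there, which allows up to 3, while it was at 31.8, 17.6 and 13.1 CPM in the high libraries, 0.202 and 0.346 CPM in the low ones and 0.732, 2.49 and 3.13 CPM in ADM. ENSECAG00000011631 had 1 count in CDM2 and was at 19.7, 25.2 and 10.5 CPM in the high libraries, 0.548 and 0.935 CPM in the low ones and 16.4, 4.45 and 4.38 CPM in ADM. CDM2 was the highest of all 9 libraries for 4 members and below all others for 9. It was above every ADM library for 30 members (44.8%) and below every one for 23 (34.3%), while over all tested genes the shares were 40.0% and 48.0%. Across the 67 members, levels in CDM2 and mean levels in ADM had a rank correlation of 0.23, against 0.77 across all 13571 genes. The other pairings of ADM, CDM2, the high and the low libraries were lower among members too, at 0.41 to 0.61 against 0.79 to 0.95. Members span a narrower range of levels, so all these values are descriptions of these libraries.

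**Figure D4:**
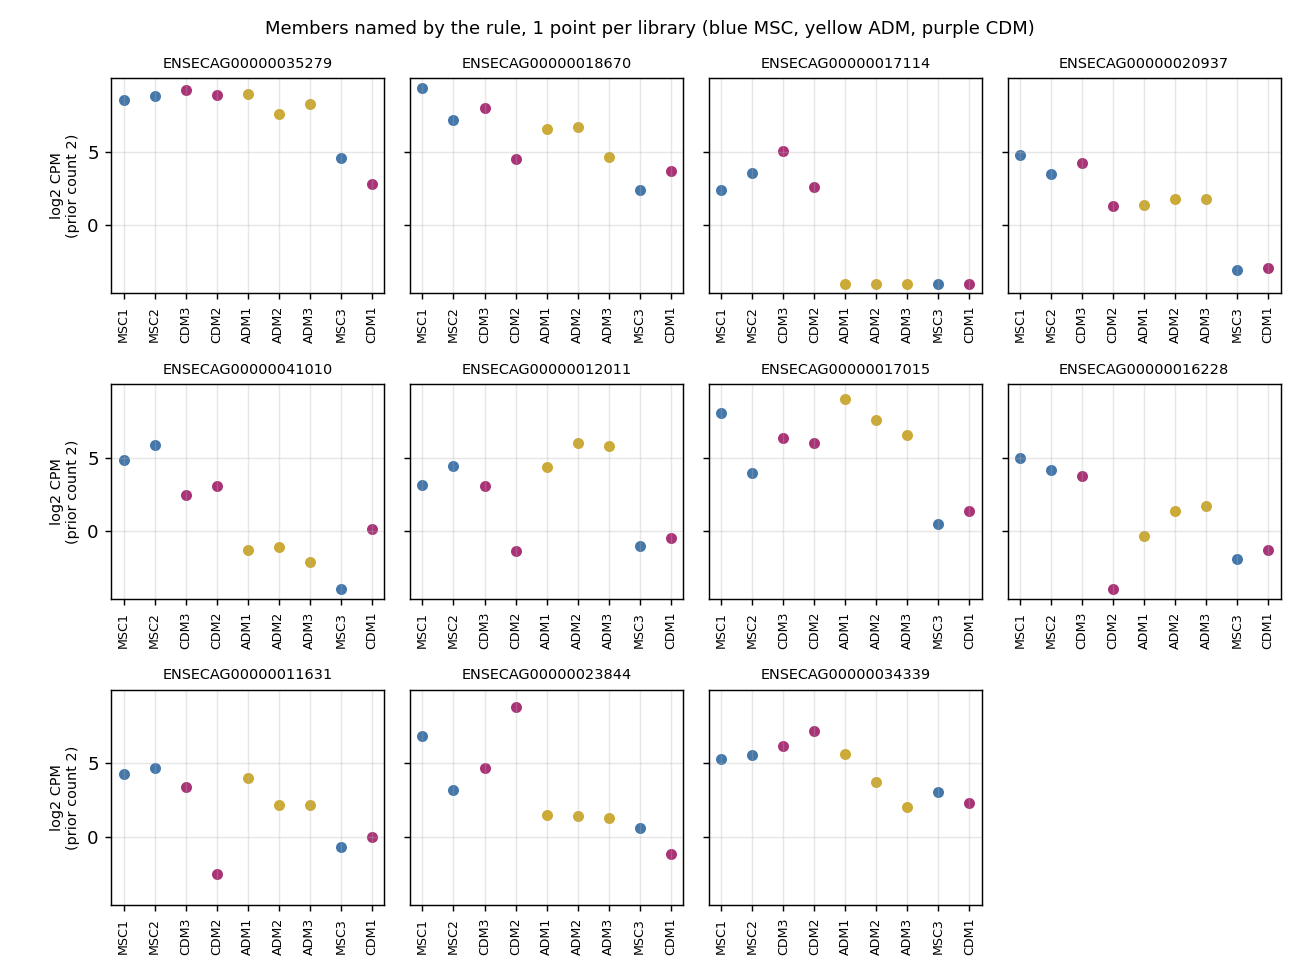
Points are log2 CPM (prior count 2) of 11 members in each of the 9 libraries, ordered with the high libraries first, then CDM2, ADM1 to ADM3, and the low libraries. ENSECAG00000012011 and ENSECAG00000017015 were high in ADM, ENSECAG00000017114 and ENSECAG00000041010 low in ADM, and ENSECAG00000023844 highest in CDM2.

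The members also varied among the ADM libraries, which took no part in the choice. The coefficient of variation over ADM1 to ADM3, the SD divided by the mean, had a median of 0.471 over the 66 members with ADM reads, against 0.181 over 13557 tested genes, and 57 of the 66 lay above 0.181. This held at each level: the medians of members and tested genes were 0.465 and 0.331 where the ADM mean was under 5 CPM, 0.432 and 0.163 from 5 to under 20 CPM, and 0.545 and 0.140 at 20 CPM or more. The numbers of members were 30, 21 and 15. Each pair of ADM libraries showed it, with a median absolute log2 difference of 0.64, 0.73 and 0.82 for ADM1 with ADM2, ADM1 with ADM3 and ADM2 with ADM3, against 0.24, 0.30 and 0.34 over all tested genes. For the 84 genes of the opposite pattern with ADM reads, the median coefficient was 0.264, and 56 of the 84 also lay above 0.181. These genes were not split by ADM level.

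ADM3 was the lowest ADM library for 33 members (49.3%) and the highest for 13 (19.4%), against 36.0% and 36.4% of all tested genes. The widest ADM range was that of ENSECAG00000016361, chosen after its values were seen, at 18.2, 85.9 and 3.19 CPM in ADM1, ADM2 and ADM3. This 26.9-fold range compares with 171, 112 and 64.1 CPM in the high libraries and 9.003 and 11.6 CPM in the low ones, so 1 ADM library resembled the high side and another fell below the low side. ENSECAG00000000932, chosen in the same way, was at 19.96 CPM in ADM2 and at 1.39 and 1.42 CPM in ADM1 and ADM3. Its low libraries were at 2.16 and 1.32 CPM and its high ones at 10.5 to 26.5 CPM. In all, 5 members ranged 10-fold or more within ADM and 20 under 2-fold.

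**Figure D5:**
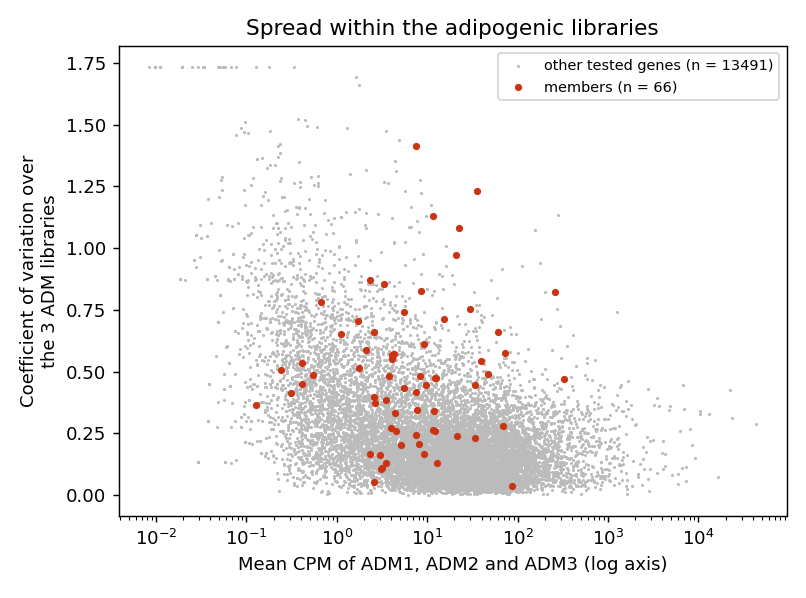
Each point is a tested gene, by its mean CPM over the 3 ADM libraries (log axis) and its coefficient of variation over them. Most of the 66 members with ADM reads, in red, lie above the median of 0.181, and the steadiest is ENSECAG00000009663 at 0.0381.

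The study's own comparisons were then read for the members. The fit was edgeR's quasi-likelihood test on the counts of all 9 libraries, with p-values adjusted over the 13571 genes. The MSC and CDM libraries that chose the members enter every comparison and hold both high and low libraries by choice, which raises the spread within those groups. The counts below are therefore descriptions.

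Between ADM and MSC, which asks about adipogenic differentiation, 0 members passed in either direction at an adjusted p under 0.05, as did 0.0147% of all genes in each direction. At an unadjusted p under 0.05, 11 of 67 members (16.4%) were lower in ADM and 0 higher, where the shares over all genes were 6.12% lower and 5.16% higher. The median log2 change was -1.26 over the members and -0.034 over all genes, and 52 members (77.6%) were below 0, as were 52.3% of all genes. The rule required 2 of the 3 MSC libraries to be high, which bears on this direction. At an unadjusted p under 0.05 in either direction there were 25 members (37.3%) without MSC3, against 13.3% of all genes in that fit. Only the MSC libraries chosen as high remain there, so this rise is partly set by the rule. Without ADM3 there were 5 (7.46%), against 6.61%. The CDM libraries are in neither group here but share the fit's estimate of the spread. Without CDM1, CDM2 and CDM3 there were 16, 12 and 14 (23.9%, 17.9% and 20.9%). The shares of all genes in those fits were 13.5%, 19.5% and 11.5%. The rule chose CDM1 as low and CDM3 as high, which bears on the counts without them. The member with the smallest p was ENSECAG00000005302, at 11.96, 22.6 and 2.74 CPM in MSC1 to MSC3 and 0.101, 0.322 and 0.296 CPM in ADM1 to ADM3, with no overlap. Its log2 change was -5.69 (SE 1.02), with an edgeR adjusted p of 0.0853 that missed the threshold. The range of its adjusted p over the alternatives was 4.15e-08 to 0.400.

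Every ADM library was below every MSC library for 3 members (4.48%), against 13.4% of all tested genes, and above for 2 (2.99%), against 14.8%. The 3 were ENSECAG00000003921, ENSECAG00000005302 and ENSECAG00000023764, and the 2 were ENSECAG00000009663 and ENSECAG00000014992. ENSECAG00000014992 was at 38.2, 38.8 and 24.95 CPM in ADM and at 15.0, 10.3 and 1.64 CPM in MSC1 to MSC3. These shares lie below those of all genes, in a group chosen to be spread out within MSC.

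Between CDM and MSC, which asks about chondrogenic differentiation, 0 members passed in edgeR, as did 0 of all genes in either direction (0% and 0%). At an unadjusted p under 0.05 there were 0 members, against 6.15% of all genes higher and 4.91% lower in CDM. The groups could not be fully apart for any member, because each holds a high and a low library, whereas over all genes the CDM libraries lay entirely above the MSC libraries for 4.19% and entirely below for 6.40%. Without MSC3 the unadjusted count was 5 (7.46%), against 8.21% of all genes in that fit, and without CDM3 it was 18 (26.9%), against 13.3%. MSC3 is the only MSC library chosen as low, and CDM3 the only CDM library chosen as high. The rise in both counts is therefore partly set by the rule. ENSECAG00000033234 had the smallest p, at 1.49, 0.552 and 5.13 CPM in CDM1 to CDM3 and 17.7, 57.2 and 0.0866 CPM in MSC1 to MSC3, so the groups overlapped. Its log2 change was -3.35 (SE 1.56), with an edgeR adjusted p of 0.455.

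Between ADM and CDM, the difference between the lineages, 0 members passed in edgeR, as did 0 of all genes (0% and 0%). At an unadjusted p under 0.05, 9 members were lower and 1 was higher in ADM, against 11.7% and 7.33% of all genes. The share lower, 13.4%, is near that of all genes. The total of 10 was 19 (28.4%) without MSC3, against 19.98% of all genes in that fit, 19 (28.4%) without CDM1, against 29.9%, and 16 (23.9%) without CDM3, against 18.99%. MSC3 and CDM1 were chosen as low and CDM3 as high, so the rule bears on each of these counts. For MSC3 this is through the shared estimate of the spread. The total was 6 (8.96%) without MSC2, which was chosen as high, against 16.9% of all genes. It was 5 (7.46%) without CDM2, against 15.2%. Without ADM1, ADM2 and ADM3 it was 5, 4 and 3 (7.46%, 5.97% and 4.48%), against 8.96%, 10.3% and 10.6% of all genes. The 1 that was higher, ENSECAG00000012011, had a log2 difference of 3.87 (SE 1.42) and an edgeR adjusted p of 0.218. ENSECAG00000005302, at 1.49, 6.41 and 9.02 CPM in CDM1 to CDM3, had the smallest p among those lower, with a log2 difference of -4.54 (SE 0.98) and an edgeR adjusted p of 0.152.

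ADM and CDM did not overlap for 6 members. Every ADM library was above every CDM library for ENSECAG00000012011, ENSECAG00000015972 and ENSECAG00000017015, or 4.48% against 15.7% of all genes. Every ADM library was below for ENSECAG00000005302, ENSECAG00000016768 and ENSECAG00000041010, or 4.48% against 11.1%. By the rule CDM3 was at least 3 times CDM1 for every member, which spreads out the CDM libraries and bears on both shares. ENSECAG00000016768 was at 3.05, 3.36 and 2.73 CPM in ADM and at 3.67, 14.6 and 26.4 CPM in CDM1 to CDM3, so its ADM libraries lay just below CDM1.

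DESeq2, the other test, called more members. Lower in ADM than in MSC were 8 members (11.9%), against 2.38% of all genes, and 0 were higher, against 2.04%. With MSC1 and MSC2 chosen as high, the rule bears on this direction here too. Genes without a DESeq2 adjusted p, some members among them, were counted as not called. Lower in ADM than in CDM were ENSECAG00000005302, ENSECAG00000017114 and ENSECAG00000023844, or 4.48% of members, which is near the 4.36% of all genes. ENSECAG00000012011 was higher, or 1.49% of members against 2.74% of all genes. Between CDM and MSC it called 0 members, with 0.346% of all genes higher and 0.332% lower. For ENSECAG00000023844 the CDM libraries lay on both sides of ADM, with CDM1 at 0.381 CPM below the ADM libraries and CDM2 and CDM3, at 457 and 26.03 CPM, above them.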

How the data were processed

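Polyadenylated RNA of 9 horse libraries was sequenced, 3 each of MSC, ADM and CDM. The authors deposited unnormalized read counts per gene in 1 file for each library. Per the submitters' processing notes, the tools were STAR 2.7.5c, HTSeq 1.99.2, FastQC 0.11.9 and DESeq2 3.16, and the build was equCab3. The annotation release and strand setting were not found in these sources, so reads of overlapping or antisense genes, and of near-identical copies, may not be kept apart. The 5 closing lines for reads in no gene (24.4% to 36.4% of counted reads) were left out of library sizes and tests.

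With edgeR 4.0.16 (R 4.3.3), low genes were removed by filterByExpr over the 3 groups and libraries scaled by TMM. Log2 CPM used a prior count of 2. The quasi-likelihood test was fitted once to all 9 libraries, 2-sided, with 6 residual degrees of freedom and Benjamini-Hochberg adjustment. The SE of a log2 change came from the change and its F statistic. DESeq2 1.42.0, other scalings, filters and rule thresholds, and leaving out each library were alternatives. An exact test of 3 libraries against 3 cannot go below 0.1.

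The members and lists were chosen with earlier results of these data known. The rule for named genes took, for want of symbols, the first 2 IDs by level, by ratio, by their place in ADM and in CDM2, and nearest the fold threshold; other IDs were chosen after their values were seen, including those of smallest p.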

Additional observations from a re-analysis of the deposited data

Results flagged for a closer look

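Reads that were assigned to no gene, which the comparisons do not use, exceeded the range of the 3 MSC libraries in CDM2 and CDM3. The share in no feature was 24.4% in CDM2 and 23.3% in CDM3, against 17.7% to 22.1% in MSC. Ambiguous reads made up 4.47% in CDM2, against 1.41% to 1.74% in MSC. Multiply aligned reads were 7.49% there, against 4.80% to 6.72% in MSC. Among the libraries that chose the members, the share in no feature was higher in all 3 high libraries than in both low ones.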

How the results depend on the processing

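The number of members depended on the rule and the scaling. It was 67, and became 112 with library totals as the only scaling, 111 with 2 times and 40 with 5 times in the rule, and 150 with a minimum of 1 CPM and 35 with 10 CPM. With library totals all 67 remained among the 112. With DESeq2 size factors 66 were chosen, all among the 67, and without the filter 69, with all 67 among them.

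The number of members lower in ADM than in MSC was 0, and became 1 without the filter and 1 with only the libraries of the 2 groups in the fit, ENSECAG00000005302 in both (edgeR adjusted p = 0.0411 and 0.0482), and 8 with DESeq2. Between ADM and CDM, DESeq2 gave 1 higher and 3 lower in place of 0. Of the 4 log2 changes given above with an edgeR adjusted p, 3 passed with DESeq2: that of ENSECAG00000005302 between ADM and MSC and between ADM and CDM, and that of ENSECAG00000012011 between ADM and CDM. Leaving out each of the 9 libraries gave 0 members called in every comparison. Over all genes the calls between ADM and MSC went from 4 to 173 without CDM2, 23 without CDM1 and 6 without CDM3, and to 0 or 1 without an MSC or ADM library.

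Each scaling or threshold chose its own members, so a change in the counts below is partly a change in the number of members. With library totals as the only scaling, 112 members were chosen in place of 67. Every ADM library was on the low side for 12 of the 112 and on the high side for 11, in place of 6 and 5 of the 67. CDM2 was on the low side for 33 of the 112, in place of 16 of the 67. With 5 times in the rule CDM2 was on the high side for 12 of 40 members, in place of 21 of 67. With a minimum of 10 CPM every ADM library was on the low side for 1 of 35 members, and CDM2 on the low side for 10 and the high side for 9. Without 1 ADM library, 6 to 9 of the 67 members had the other ADM libraries on the low side and 6 to 11 on the high side.

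The replicate block, with the number in the titles as a block, left 0 members called in each comparison; over all genes it gave 0 calls between ADM and MSC in place of 4. Same-numbered libraries did not deviate together: 8 of 9 such correlations were below 0 and the highest was 0.012. With 3 libraries in each group, these values cannot show whether a shared number means a shared animal, culture or batch. Across numbers the largest correlations were those of MSC1 with CDM3 (0.369) and MSC3 with CDM1 (0.255), which are on the same side in the rule. MSC2 and CDM3, also on the same side, had a correlation of only 0.020. The rule was set with earlier results of these libraries known, so these correlations are descriptions and not separate evidence for its sides. Donors and batches are not stated, and a shared source was not tested. Members with 1 to 3 counts in a low library have ratios limited by depth.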
